A study of Rattus norvegicus with 60 samples.

Results

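A set of 9 genes of neutrophils and other myeloid cells was followed through the rat spinal cord after contusion: the alarmins S100a8 and S100a9, the innate receptors Trem1, Clec4d, Clec4e, Fpr1 and Hcar2, the secreted chemoattractant Prok2, and Slfn4. They were taken as the probe sets whose single gene symbol was the gene's own. Each of the 9 had 1 probe set, and they are 9 of the 14324 genes that could be named. They had been picked by name with earlier results of these data known, among them the differences after injury and after methylprednisolone (MP) in injured rats, so those differences, and all others between injured rats after 0 h, are a description: no p is given for them, and counts past the threshold of the fit stand only beside the same count over all genes.

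Female Long Evans rats of 8 or 9 weeks were left non-injured as sham controls (S) or had a weight-drop contusion after a thoracic laminectomy (SCI), and then received MP, a synthetic glucocorticoid, at 30 mg/kg in 70% ethanol, or the ethanol alone (EtOH), into a vein. These made up the groups S-EtOH and S-MP (sham) and SCI-EtOH and SCI-MP (injured), and 2 rats per group were killed at each of 7 times after medication, from 2 h through 4, 6, 8, 12 and 24 h to 48 h. S-EtOH and SCI-EtOH also had 2 rats each at 0 h, which no MP group had. RNA of 5 mm of lesioned cord was hybridised to Rat Gene 1.0 ST arrays, 1 array per rat, giving 60 arrays. All rats after 0 h thus received ethanol, and no group was without it. The sources used here do not describe the sham operation. The values are log2 and lie around 0 for each probe set, so a difference of 1 is a 2-fold difference, but the values give no level over background, and values of different genes cannot be ranked against each other. For the same reason the absence of a marker of spinal cord could not be judged.

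Neutrophils are the first blood leukocytes to enter injured tissue, and monocytes follow them. S100a8 and S100a9 form the calcium-binding complex calprotectin, which fills the neutrophil cytosol and acts on Tlr4 and Ager once released. Trem1 amplifies inflammatory signalling through the adaptor Tyrobp, while the lectins Clec4d (MCL) and Clec4e (Mincle) bind glycolipids and signal through Fcer1g and Syk. Fpr1 senses formylated peptides of bacteria and mitochondria, Hcar2 is the receptor for niacin and beta-hydroxybutyrate, Prok2 (Bv8) attracts and mobilises myeloid cells, and Slfn4 is a Schlafen family gene known in mice as a regulator of myeloid cell maturation. In bulk cord, more cells of a type and more RNA per cell cannot be told apart.

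S100a8 and S100a9 lie next to each other on chromosome 2 and Clec4d and Clec4e on chromosome 4, with 0 annotated genes between the partners of either pair. The promoters of S100a9 and Trem1, whose values ran most closely together, and of the neighbours Clec4d and Clec4e are shown because the text compares the courses of these genes. They are RefSeq sequence of build GRCr8, from 250 bases before to 50 after the 1 annotated start used per gene, read 5′ to 3′ on the gene's strand. The start used for Trem1 lies inside the annotated gene (chr9:20259227-20276879), so its window does not reach the gene's 5′ end. Capitals mark matches, on either strand, of the letters TTGCNNAA, a C/EBP motif, TATAAA, the TATA box, ACANNNTGT, the core of the glucocorticoid response element, or GAGGAAG, an ETS motif bound by PU.1. The NF-kB motif was searched as well, as GGG and TTCC with any 3 bases between them.
S100a9 (chr2:178490573-178490872, minus strand): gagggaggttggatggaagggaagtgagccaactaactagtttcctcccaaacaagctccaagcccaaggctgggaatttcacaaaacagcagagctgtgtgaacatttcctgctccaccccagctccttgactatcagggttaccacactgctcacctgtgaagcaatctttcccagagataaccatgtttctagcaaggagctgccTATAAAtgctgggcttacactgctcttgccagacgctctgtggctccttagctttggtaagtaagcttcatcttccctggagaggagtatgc
Trem1 (chr9:20272420-20272719, minus strand): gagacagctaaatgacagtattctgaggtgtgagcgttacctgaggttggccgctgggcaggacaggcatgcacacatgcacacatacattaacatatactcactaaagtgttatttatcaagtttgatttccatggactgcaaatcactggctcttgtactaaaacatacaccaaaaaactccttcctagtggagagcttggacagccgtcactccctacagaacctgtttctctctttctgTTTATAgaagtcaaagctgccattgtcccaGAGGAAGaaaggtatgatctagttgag
Clec4d (chr4:158275093-158275392, plus strand): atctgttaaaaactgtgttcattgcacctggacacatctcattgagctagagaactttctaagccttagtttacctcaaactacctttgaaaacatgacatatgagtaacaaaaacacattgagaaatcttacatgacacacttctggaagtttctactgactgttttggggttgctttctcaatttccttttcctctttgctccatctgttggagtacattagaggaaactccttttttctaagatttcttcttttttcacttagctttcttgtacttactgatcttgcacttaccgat
Clec4e (chr4:158298418-158298717, minus strand): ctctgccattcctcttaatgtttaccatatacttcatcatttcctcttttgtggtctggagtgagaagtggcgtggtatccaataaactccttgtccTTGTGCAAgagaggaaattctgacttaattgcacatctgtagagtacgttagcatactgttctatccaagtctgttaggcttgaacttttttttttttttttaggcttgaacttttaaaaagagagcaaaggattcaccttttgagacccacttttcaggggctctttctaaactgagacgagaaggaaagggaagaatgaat

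Promoters of 7 of the 9 genes were in the RefSeq table. TATAAA was found in 3 of the 7 and in 14.3% of all 27457 promoters: in S100a9 at −42 to −37 on the gene's strand, and on the other strand in Trem1 at −7 to −2 and in Prok2 at −31 to −26. TTGCNNAA was found in 1 of 7, Clec4e at −153 to −146, against 10.5% of all promoters, and GAGGAAG in 1 of 7, Trem1 at 23 to 29 after the start, against 12.4%. The NF-kB motif and ACANNNTGT had 0 matches in the 7 windows and were in 5.36% and 6.6% of all promoters. The windows of Trem1 and Fpr1 lie inside the annotated genes and do not reach their 5′ ends. These are matches of letters and not shown to be bound sites. The windows of the neighbours Clec4d and Clec4e shared none of these matches.

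All 9 probe sets passed the filter on noisy probe sets, each with a coefficient of variation under 50% in 25 to 30 of the 30 duplicate pairs. As the filter removed only 4 of 27342 probe sets, passing it says little about these genes. The 2 rats of a pair were closer in sham groups than in injured groups: for the 9 genes, the SD within a pair had a median of 0.07 in S-EtOH (72 pairs of values) and 0.07 in S-MP (63), against 0.35 in SCI-EtOH (72) and 0.23 in SCI-MP (63). Over all genes the duplicates of SCI-EtOH at 6 h correlated least, at r = 0.161, against a median of 0.707 in that group. The sources used here name no scan or extraction batch, so a batch that followed the groups cannot be told apart from them.

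In sham cord the 9 genes stayed in a narrow range and in SCI-EtOH they had a maximum between 8 and 24 h. S100a8 was highest at 8 h in SCI-EtOH, with 1.95 and 2.24 in the 2 rats, against −0.11 and −0.07 in S-EtOH. At 6 h it had been 0.66 and 0.74, at 12 h it was 1.22 and 1.02, at 24 h 1.24 and 1.64, and at 48 h 0.43 and 0.82, so the 8 h pair lay above both rats of every other time. S100a9, its partner in calprotectin, was also highest at 8 h, with 1.59 and 1.07 at 6 h, 3.53 and 3.67 at 8 h, 2.95 and 2.54 at 12 h, 2.10 and 2.90 at 24 h and 0.92 and 1.58 at 48 h. Slfn4 had the sharpest change of the 9 between 6 and 8 h in these rats, from 0.23 and 0.74 to 4.83 and 3.10, and was 2.40 and 0.88 at 12 h. Its 2 rats differed more than those of S100a9 but did not overlap with the 6 h pair.

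**Figure D1:**
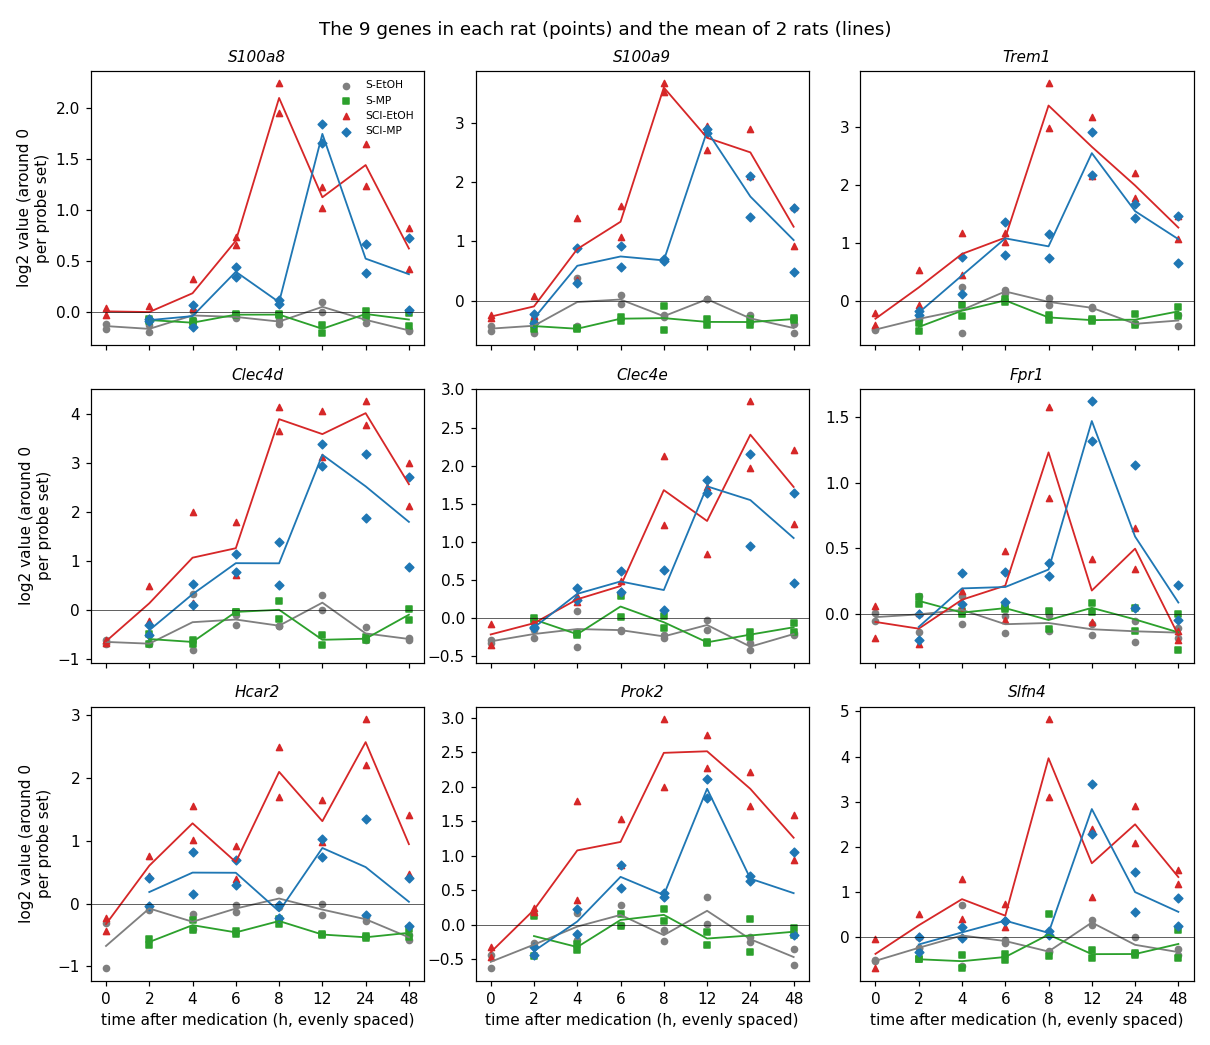
Log2 value of each of the 9 genes (vertical axes, around 0 per probe set) by h since medication (horizontal axes, times evenly spaced), with 1 point per rat, 4 groups, and lines through the mean of 2 rats. SCI-EtOH has its highest mean at 8 h for 5 genes, at 12 h for 1 and at 24 h for 3, while SCI-MP is highest at 12 h for all 9.

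The receptors and Prok2 differed in the time of their maximum in SCI-EtOH. Trem1 was highest at 8 h, with 3.75 and 2.98, and overlapped with 3.16 and 2.15 at 12 h. Fpr1, the formyl peptide receptor, was highest at 8 h, with 1.57 and 0.89 against −0.06 and 0.42 at 12 h, 0.34 and 0.65 at 24 h and −0.20 and −0.13 at 48 h. The lectin receptors stayed high for longer. Clec4d stayed high from 8 to 24 h, with 4.15 and 3.65 at 8 h, 4.07 and 3.12 at 12 h, 3.78 and 4.27 at 24 h and 2.13 and 3.01 at 48 h. Clec4e, its neighbour, had its highest mean at 24 h, 1.97 and 2.85, which overlapped with 1.24 and 2.21 at 48 h. Hcar2 also had its highest mean at 24 h, with 2.20 and 2.93 against 2.49 and 1.70 at 8 h, and Prok2 was as high at 12 h (2.75 and 2.27) as at 8 h (2.98 and 2.00). The order of these late maxima is not resolved, since for Clec4d, Clec4e, Hcar2 and Prok2 the rats of the highest and the next highest time overlapped.

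Averaged over the 7 times, SCI-EtOH minus S-EtOH was 2.70 (SE 0.18) for Clec4d, 1.95 (SE 0.11) for S100a9 and 1.80 (SE 0.11) for Trem1, and it was smallest for Fpr1, at 0.35 (SE 0.08). The other 5 lay between 0.96 for S100a8 and 1.68 for Slfn4. All 9 were higher past the threshold, an adjusted p under 0.05 in the limma fit over all 60 arrays and 14324 genes, where 35.1% of all genes were, and the median was 1.65 against 0.04 over all genes. Both injured rats lay above both sham rats in 56 of the 63 combinations of gene and time, against 32.9% of all such combinations over all genes. At 2 h, 0 of the 9 were past the threshold (2.46% of all genes higher), at 8 h and 24 h all 9 (11.8% and 19.3%) and at 48 h 8, with Fpr1 at −0.02 (18.4%). The genes were chosen with this contrast known, and nothing is read from these counts. After quantile normalization between arrays the values were smaller, with Prok2 at 1.10 and S100a8 at 0.63. The fit pooled the variance of each gene over sham and injured groups. Its standard errors (SE) for contrasts among injured rats, here and below, therefore tend to be too small.

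In injured cord with MP these genes were low at 8 h and high at 12 h. S100a9 was 0.70 and 0.67 at 8 h in SCI-MP and 2.82 and 2.90 at 12 h, where the SCI-EtOH rats had 2.95 and 2.54. S100a8 was 0.08 and 0.12 at 8 h and 1.83 and 1.65 at 12 h, above the 1.22 and 1.02 of SCI-EtOH. Slfn4 was 0.06 and 0.14 at 8 h and 3.40 and 2.28 at 12 h. The sham rats of 8 h had −0.40 and 0.53 in S-MP and −0.32 and −0.30 in S-EtOH, so only a single S-MP rat lay above these SCI-MP rats at 8 h. Clec4d was 1.39 and 0.52 at 8 h and 3.40 and 2.95 at 12 h. The other receptors and Prok2 had the same shape. Trem1 went from 1.15 and 0.73 to 2.91 and 2.18 in SCI-MP and Clec4e from 0.63 and 0.11 to 1.81 and 1.65. Fpr1 went from 0.29 and 0.39 to 1.32 and 1.62, Hcar2 from −0.02 and −0.23 to 1.03 and 0.74, and Prok2 from 0.40 and 0.46 to 1.83 and 2.11. For none of the 9 did the SCI-MP rats of 8 h overlap with those of 12 h.

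At 8 h both SCI-MP rats lay below both SCI-EtOH rats for all 9 genes (24.8% of all genes), and all 9 were past the threshold (4.54% of all genes lower), with SCI-MP minus SCI-EtOH from −3.87 (SE 0.45) for Slfn4 to −0.89 (SE 0.22) for Fpr1 and a median of −2.22. At 12 h the median was 0.11, with 2 genes past the threshold (16.2% of all genes in either direction), both higher with MP, S100a8 at 0.62 (SE 0.14) and Fpr1 at 1.29 (SE 0.22). At 24 h 4 were lower (5.33%), namely Hcar2 at −1.99, Slfn4 at −1.50, Prok2 at −1.30 and S100a8 at −0.91. At 2 h (4.50% of all genes in either direction), 4 h (2.07%), 6 h (11.4%) and 48 h (2.60%) 0 were past the threshold in either direction. From 8 to 12 h, a step picked out after its values were seen, 8 of 9 were higher past the threshold in SCI-MP (3.23% of all genes higher), all but Hcar2 at 1.01, and 3 were lower in SCI-EtOH (0.251%), namely Slfn4 at −2.32, Fpr1 at −1.05 and S100a8 at −0.97. MP in injured rats was a contrast known when the genes were chosen, and nothing is read from these counts either.

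**Figure D2:**
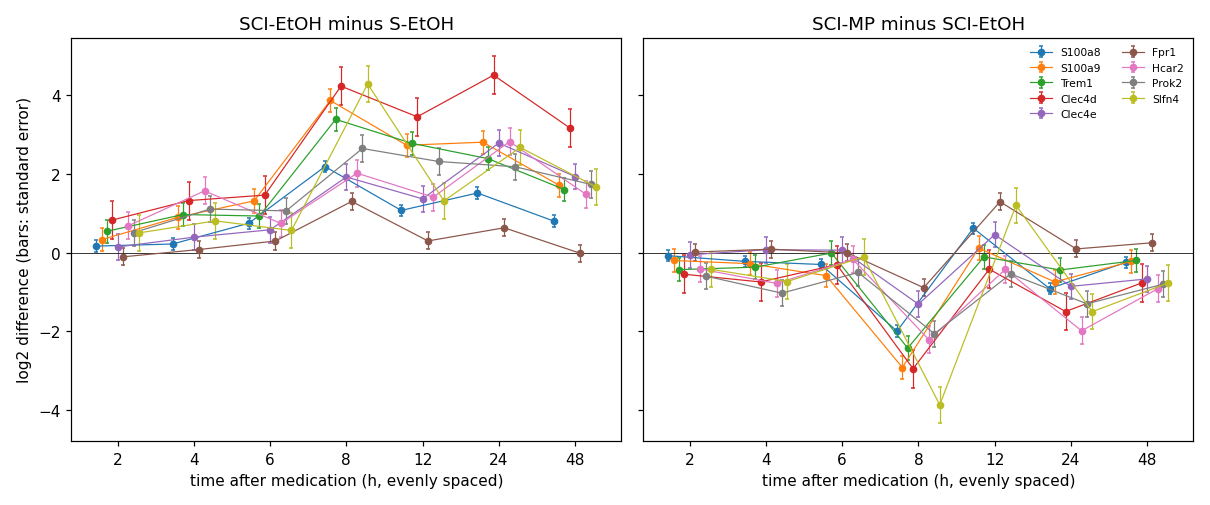
Log2 difference (vertical axis, bars are the standard error of the limma fit) of SCI-EtOH minus S-EtOH (left) and SCI-MP minus SCI-EtOH (right) by h since medication (horizontal axes, times evenly spaced), with 1 line per gene and 2 rats per group. At 8 h the right panel runs from −3.87 to −0.89, and at 12 h from −0.54 to 1.29. The variance is pooled over sham and injured rats, so the bars of the right panel tend to be too narrow.

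Over the mean of 7 times, MP minus vehicle in injured rats was −1.03 (SE 0.18) for Clec4d, −0.99 (SE 0.13) for Hcar2, −0.98 (SE 0.13) for Prok2 and 0.12 (SE 0.08) for Fpr1, and 8 of 9 were lower past the threshold (31.7% of all genes). This mean rests in part on 1 time: without the 8 h arrays, an alternative added after the data were seen, 5 of 9 were lower, and Slfn4 went from −0.89 to −0.39 and S100a9 from −0.69 to −0.32. It depends on the scaling as well: after quantile normalization Clec4d was at −0.51, Hcar2 at −0.50, Prok2 at −0.54, Slfn4 at −0.44 and Clec4e at −0.06, and 6 of 9 were lower past the threshold. Injury with MP in both groups, SCI-MP minus S-MP, was above 0 for all 9 over the mean of 7 times (21.7% of all genes higher past the threshold, as all 9 were), with a median of 0.88 and a maximum of 1.70 for Clec4d. These 3 contrasts share groups with each other, and the genes were chosen with them in view.

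MP in sham rats was tested with limma. It was taken as a contrast that did not choose the genes, although their origin is not stated in full, and its S-EtOH rats are also the controls of the injury contrast. Hcar2 lay lower in S-MP at most times: over the 14 rats from 2 to 48 h it had a lowest, median and highest value of −0.66, −0.49 and −0.24 in S-MP, against −0.58, −0.15 and 0.21 in S-EtOH. The ranges overlapped, both S-MP rats lay below both S-EtOH rats at 5 of 7 times, and the mean difference of −0.28 (SE 0.13) did not pass (adjusted p = 0.183 from limma, unadjusted p = 0.0391). It was the 1 gene of the 9 with an unadjusted p under 0.05. Slfn4 was at −0.22 (SE 0.17) and S100a9 at −0.16 (SE 0.11), and the highest was Clec4e at 0.09 (SE 0.12). Of the 9 genes 0 were past the threshold over the mean of 7 times, where 9.85% of all genes were, nor at 2 to 6 h (1.17%), 8 h (0.691%), 12 h (0.559%) or 24 to 48 h (0.154%), and the difference of the MP effect between 24 to 48 h and 2 to 6 h gave 0 as well (0.0140%). At an unadjusted p under 0.05 those last 5 tests also gave 0. The fit pooled the variance of each gene over sham and injured groups. The median SD within a pair was 0.07 in both sham groups, against 0.35 in SCI-EtOH and 0.23 in SCI-MP. The standard errors in sham rats thus include the wider spread of injured rats, and those in injured rats the narrower spread of sham rats. A difference that did not pass is therefore not shown to be absent. A fit of the contrast's arrays alone put 1 gene past the threshold over the mean of 7 times and 1 at 2 to 6 h. At 12 h 8 of 9 lay below 0, with a median of −0.38 and the lowest, Clec4d, at −0.76. The medians of erythrocyte and platelet markers and of monocyte and macrophage markers also lay below 0 at 12 h, while microglia markers went the other way. The 6 erythrocyte and platelet markers had a median of −1.17 at 12 h, with 0 past the threshold and 3 at an unadjusted p under 0.05, and means per rat of −0.98 and −1.39 in S-MP against −0.10 and −0.26 in S-EtOH. Over the mean of 7 times 3 of these 6 fell past the threshold, with the globin genes Hbb-b1 at −1.03 (SE 0.21, adjusted p = 0.00173) and Hbb at −0.90 (SE 0.19, adjusted p = 0.00229) and the heme synthesis gene Alas2 at −0.73 (SE 0.22, adjusted p = 0.0311), and so did Fcer1g, the adaptor of the lectins, at −0.35 (SE 0.09, adjusted p = 0.00818). The 11 monocyte and macrophage markers had a median of −0.28 at 12 h, with 0 past the threshold and 2 at an unadjusted p under 0.05. Over the mean of 7 times these 11 went both ways, from −0.24 (SE 0.15) for Lyz2 to 0.33 (SE 0.15) for Gpnmb, and none passed. The mean over 8 homeostatic microglia markers at 12 h was 0.11 and 0.06 in S-MP, against −0.47 and −0.30 in S-EtOH. Among them Olfml3 rose past the threshold over 7 times, at 0.42 (SE 0.09, adjusted p = 0.00218). Of the S100 list S100a4 at −0.26 (adjusted p = 0.0203), S100b at −0.22 (adjusted p = 0.00759) and S100pbp at 0.17 (adjusted p = 0.0104) passed. The part of blood in the values of the 9 genes was not tested.

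At 0 h no difference between injured and sham cord passed the test in these genes. S100a9 was −0.30 and −0.24 in SCI-EtOH and −0.52 and −0.42 in S-EtOH, which did not overlap, while Clec4d was −0.66 and −0.61 against −0.68 and −0.62, which did. Differences at 0 h ran from −0.04 (SE 0.22) for Fpr1 to 0.35 (SE 0.34) for Hcar2. Of the 9, 0 were past the threshold in limma and 0 had an unadjusted p under 0.05 (0.0419% of all genes past the threshold). The standard errors at 0 h, 0.14 to 0.48, leave room for differences of that size. They too rest on a variance pooled over all groups and times. In SCI-EtOH the mean of 2 to 6 h lay above 0 h for all 9, from 0.13 for Fpr1 to 1.46 for Clec4d, as a description. Of these 5 were past the threshold, beside 8.35% of all genes that were higher, and nothing is read from that count.

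In sham rats with vehicle all 9 genes lay higher at 2 to 6 h than at 0 h, from 0.01 for Fpr1 to 0.53 (SE 0.28) for Hcar2, but 0 passed in limma and 0 had an unadjusted p under 0.05 (0.161% of all genes past the threshold). All 9 then lay lower at 24 to 48 h than at 2 to 6 h, from −0.28 (SE 0.21) for Prok2 to −0.05 (SE 0.09) for S100a8, again with 0 past the threshold and 0 at an unadjusted p under 0.05 (0.901%). In S-MP the same contrast ran from −0.14 to 0.22, with 0 past the threshold and 0 at an unadjusted p under 0.05 (3.04%). The variance was pooled with the more variable injured groups here as well, so changes with time in sham rats are not shown to be absent. The S-EtOH rats of 4 h differed most: duplicate 2 was 0.71 for Slfn4, 0.38 for S100a9, 0.33 for Clec4d and 0.23 for Trem1, against −0.63, −0.42, −0.83 and −0.54 in duplicate 1. Over the 9 genes the means of these rats were 0.21 and −0.40.

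Within the injured groups, the late phase (24 to 48 h) was set against the early phase (2 to 6 h) of the same group. These rats also entered the contrasts by which the genes were chosen, so the values are a description without p. In SCI-EtOH all 9 genes were higher late, 8 of them past the threshold (28.3% of all genes higher), and nothing is read from that count. Clec4d had values of 3.78, 4.27, 2.13 and 3.01 late and a lowest, median and highest of −0.22, 0.61 and 2.00 over the 6 early rats, which did not overlap. Its difference of 2.47 (SE 0.31) was the highest of the 9. Clec4e followed, with 1.97, 2.85, 1.24 and 2.21 late against −0.10, 0.25 and 0.49 early (lowest, median, highest), also without overlap, and a difference of 1.86 (SE 0.21).

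Slfn4 had 2.10, 2.91, 1.18 and 1.49 late against 0.03, 0.46 and 1.28 early (lowest, median, highest), a difference of 1.39 (SE 0.29) with ranges that overlapped by 1 late rat. S100a9 had 2.10, 2.90, 0.92 and 1.58 late against −0.26, 0.71 and 1.59 early, a difference of 1.17 (SE 0.19), and S100a8 had 1.24, 1.64, 0.43 and 0.82 late against −0.05, 0.19 and 0.74 early, a difference of 0.73 (SE 0.09). For both calprotectin genes the late values inside the early range were those of 48 h, in 2 rats for S100a9 and 1 rat for S100a8. Trem1 was higher by 0.92 (SE 0.19), from an early median of 0.78 to late values of 1.77, 2.20, 1.06 and 1.46. Hcar2 was higher by 0.91 (SE 0.22), from an early median of 0.84 to 2.20, 2.93, 0.48 and 1.41, the range with the widest spread late, and Prok2 by 0.78 (SE 0.21), from 0.61 to 1.72, 2.21, 0.93 and 1.59. Fpr1, at 0.34, 0.65, −0.20 and −0.13 late, differed least (0.10, SE 0.14). The size of these differences depends on the scaling of the arrays: after quantile normalization 3 of the 8 were past the threshold, for Clec4d, Clec4e and S100a8, and S100a9 was at 0.29, Trem1 at 0.12 and Prok2 at 0.05.

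In SCI-MP the same phases put 8 of 9 genes higher late, 5 of them past the threshold (28.1% of all genes higher). Clec4d was higher by 1.88 (SE 0.31), with late values of 3.18, 1.87, 2.72 and 0.88 against an early median of 0.32. Clec4e was higher by 1.07 (SE 0.21), at 2.15, 0.94, 1.64 and 0.46, and S100a9 by 1.04 (SE 0.19), at 2.10, 1.42, 1.56 and 0.49. Trem1 was higher by 0.87 (SE 0.19), at 1.67, 1.43, 1.47 and 0.66. In all 4 of these genes duplicate 2 of 48 h was the lowest of the late rats. S100a8 was higher by 0.35 (SE 0.09), at 0.67, 0.38, 0.72 and 0.02, and by 0.18 without duplicate 1 of 48 h. Slfn4 was at 0.68 (SE 0.29), Prok2 at 0.44 (SE 0.21), Fpr1 at 0.24 (SE 0.14) and Hcar2 at −0.08 (SE 0.22). The count of 5 went to 4 without duplicate 1 of 48 h, to 7 without duplicate 2 of 24 h or of 48 h, and to 3 after quantile normalization, where Trem1 was at 0.31 and S100a8 at 0.14. SCI-EtOH and SCI-MP were not tested against each other, as this difference is a part of the MP contrast by which the genes were known.

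**Figure D3:**
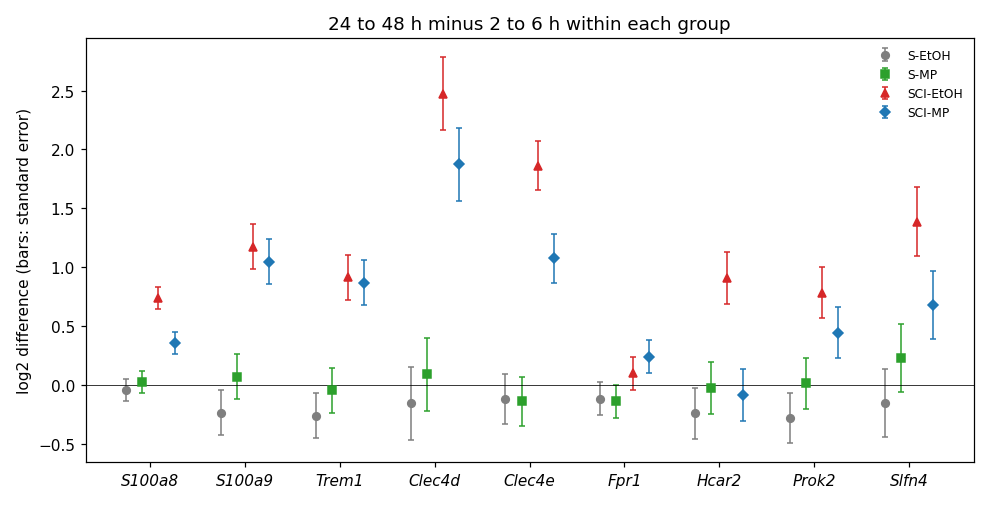
Log2 difference of 24 to 48 h minus 2 to 6 h (vertical axis, bars are the standard error of the limma fit) for the 9 genes (horizontal axis) within each of the 4 groups, with 4 late and 6 early rats each. Clec4d is the highest in both injured groups, at 2.47 and 1.88, and the sham groups lie between −0.28 and 0.22. With the variance pooled over all groups, the bars tend to be too narrow for injured and too wide for sham groups.

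From 24 to 48 h all 9 genes lay lower in SCI-EtOH, again as a description. Hcar2 went from 2.20 and 2.93 to 0.48 and 1.41, a difference of −1.62 (SE 0.34), and S100a8 from 1.24 and 1.64 to 0.43 and 0.82, a difference of −0.81 (SE 0.14). Hcar2 and S100a8 were the 2 past the threshold (0.147% of all genes lower). Lack of overlap did not set them apart, since among the 9 the rats of the 2 times overlapped only for Clec4e. S100a9 came next by the fit, at −1.25 (SE 0.30). The count of 2 rests on single rats: it was 0 without duplicate 2 of 24 h and without duplicate 1 of 48 h, and 3 without either of the other rats. It was also 0 after quantile normalization and in a fit of these 4 arrays alone. In SCI-MP all 9 lay lower at 48 h as well, from −0.73 for S100a9 to −0.15 for S100a8, with 0 past the threshold (2.07% of all genes in either direction). There, 1 was past it without duplicate 2 of 24 h and 2 without duplicate 1 of 48 h.

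Other genes of the receptors' signalling chain and families, from lists drawn up around the 9 genes, were counted in the same late minus early contrast, in which 28.3% of all genes rose and 25.3% fell in SCI-EtOH and 28.1% rose in SCI-MP. Of 19 measured adaptors and signalling genes, 14 rose and 1 fell in SCI-EtOH (median 0.54, against −0.03 over all genes) and 13 rose in SCI-MP (median 0.38, against 0.01). In SCI-EtOH the inhibitory receptor Fcgr2b rose by 2.32 (SE 0.19), the LPS co-receptor Cd14 by 1.64 (SE 0.24), and Tyrobp, the adaptor of Trem1, by 1.53 (SE 0.15). Of 12 relatives among C-type lectins and TREM genes, 7 rose in each injured group (medians 0.33 and 0.35), and in SCI-EtOH these were led by the beta-glucan receptor Clec7a at 1.77 (SE 0.15), Clec4a1 at 1.71 (SE 0.21) and Clec4a3 at 1.41 (SE 0.14). The S100 family did not move as 1 group. Of 12 genes listed with it, among them S100pbp, which is no S100 gene but is named for binding S100P and did not pass, 4 rose and 4 fell in SCI-EtOH (median −0.11), shares near those of all genes, with S100a6 at 1.94 (SE 0.25), S100a4 at 1.55 (SE 0.13) and S100a10, the partner of annexin A2, at 1.22 (SE 0.16). Of the Schlafen relatives 2 were measured, of which Slfn2 rose by 0.72 (SE 0.17) and Slfnl1 fell by 0.21 (SE 0.08) in SCI-EtOH. Of 10 genes listed around Fpr1, Prok2 and Hcar2, 4 were measured: Prok1, Prokr1, Prokr2 and Anxa1. No other formyl peptide receptor or hydroxycarboxylic acid receptor was among them. Of these 4 genes 0 rose or fell in either injured group, and 0 had an unadjusted p under 0.05. The lowest adjusted p of these 4 in SCI-EtOH belonged to Prok1, the other prokineticin, at −0.16 (SE 0.10, adjusted p = 0.187).

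Further neutrophil genes ran beside the 9. Of 21 measured, 13 rose and 1 fell from the early to the late phase in SCI-EtOH (median 0.63, where 28.3% of all genes rose and 25.3% fell) and 11 rose and 1 fell in SCI-MP (median 0.40, where 28.1% of all genes rose). The decoy receptor Il1r2 rose by 2.26 (SE 0.30), Lrg1 by 2.18 (SE 0.18) and the chemokine receptor Cxcr2 by 2.02 (SE 0.25) in SCI-EtOH. Granule genes differed among themselves: for SCI-EtOH minus S-EtOH over 7 times, Mpo was at 0.09, Ngp at 0.09, Camp at 0.14 and Ltf at 0.10, against 1.66 for Mmp8. These granule genes were named after their values were seen. The mean of the 21 genes in SCI-MP was 0.28 and 0.22 in the rats of 8 h and 1.08 and 1.07 in those of 12 h, against 1.52 and 1.03 and then 1.21 and 0.91 in SCI-EtOH, the same order as in the 9 genes.

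Markers of other cells also moved at 8 h. The mean over 11 neuron markers was −0.32 and −0.55 in SCI-MP at 8 h, against −1.56 and −1.57 in SCI-EtOH, and at 12 h it was −1.88 and −1.87 against −1.53 and −1.71. It had been −1.07 and −0.75 in SCI-MP at 4 h, against −0.70 and −1.44 in SCI-EtOH. At 6 h it was −1.29 and −1.51 against −0.76 and −0.43. In these markers the SCI-MP rats of 8 h thus lay above those of 4, 6 and 12 h in their own group. What set them apart was not tested. At 8 h 6 of the 11 were higher with MP (2.11% of all genes higher), with a median of 1.08, and none was lower. The mean over 11 monocyte and macrophage markers was −0.01 and −0.02 in SCI-MP at 8 h and 1.04 and 0.43 in SCI-EtOH. The SCI-MP rats of 8 h thus stood nearer to sham rats in neuron markers as well as in the 9 genes, and the part of these markers' cells in the 8 h values was not tested. In the late phase 8 of the 11 monocyte and macrophage markers rose and 1 fell in SCI-EtOH (median 1.51), with Gpnmb at 3.57 (SE 0.26), Cd68 at 2.43 (SE 0.20) and Mrc1 at 1.83 (SE 0.19), beside the late values of Clec4d and Clec4e. Of 11 neuron markers 9 fell, of 7 astrocyte markers 6, of 7 oligodendrocyte markers 7 and of 8 microglia markers 5, with 1 microglia marker higher, where 25.3% of all genes fell. The part of these cells in the late values of the 9 genes was not tested. At 0 h 6 erythrocyte and platelet markers had a median difference of 1.04 between SCI-EtOH and S-EtOH, with 0 past the threshold and 3 at an unadjusted p under 0.05.

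**Figure D4:**
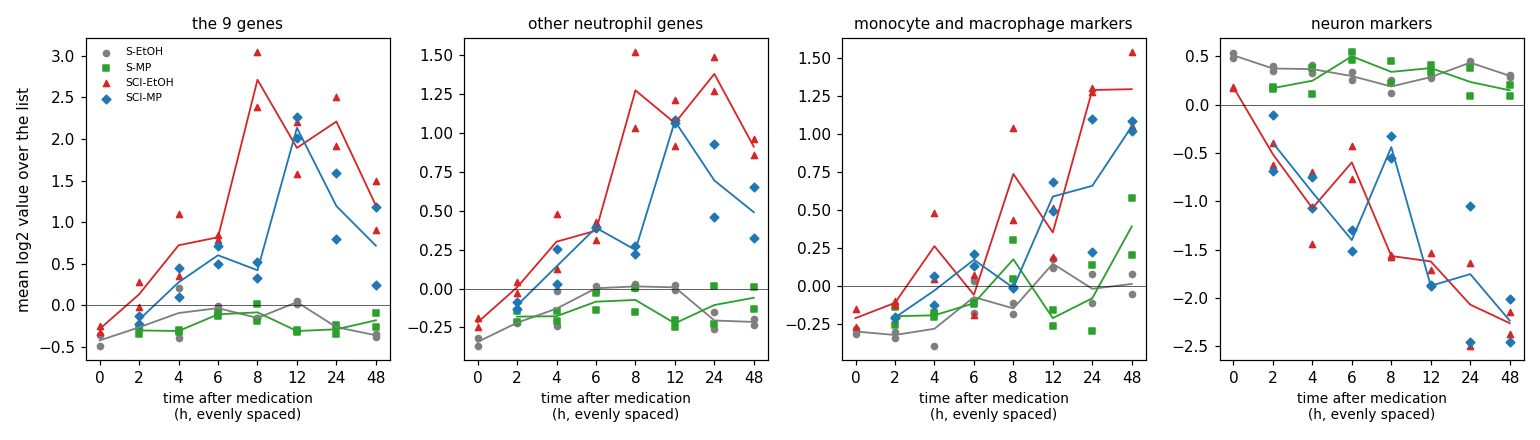
Mean log2 value over the 9 genes, 21 other neutrophil genes, 11 monocyte and macrophage markers and 11 neuron markers (vertical axes) in each rat by h since medication (horizontal axes, evenly spaced), with lines through the mean of 2 rats in each of 4 groups. At 8 h the SCI-MP rats are at 0.52 and 0.32 for the 9 genes, against 3.04 and 2.38 in SCI-EtOH, and their neuron markers are at −0.32 and −0.55, against −1.56 and −1.57.

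The 9 genes varied together across the 30 means of group and time, as a description of points that share injury, arrays and scaling. S100a9 and Trem1 were the closest pair (Pearson r = 0.988), Clec4d and Clec4e had r = 0.964 and S100a8 and S100a9 r = 0.960. Fpr1 and Hcar2 were the least alike, at r = 0.586 over the 30 means and 0.441 over the 15 means of injured groups. Outside the 9, the genes most like their mean profile were Mcemp1 (r = 0.981), Mmp8 (0.978), Cxcr2 (0.970), Pglyrp1 (0.970), Ltb4r (0.968) and Mxd1 (0.967).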

How the data were processed

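RNA of 60 rat spinal cords was measured on 60 arrays in 4 groups. The authors summarized the probe sets by RMA, which the submitters' processing notes also name, scaled every chip and every gene with GeneSpring GX 11, and deposited the resulting log2 values. The reference of the centring and the genome build are not given in the sources used here, and depth does not apply to arrays, whose number limits the precision. From these values, probe sets with a coefficient of variation of duplicates under 50% on the linear scale in at least 16 of 30 pairs were kept (27338 of 27342). The authors' own filter, described with the same limits, removed many more, and the reason for this difference was not tested. Of the probe sets 15097 carried 1 symbol, 323 several and 11922 none, and 15067 were matched by gene ID. Probe sets of a gene were averaged, giving 14324 genes. A linear model in limma 3.58.1 (R 4.3.3) held a mean for each combination of group and time, over all 60 arrays (30 residual degrees of freedom), with two-sided moderated tests and Benjamini-Hochberg adjustment over all genes of a contrast at 0.05.

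The duplicates are separate rats. The genes, lists, phases and contrasts were chosen with earlier results of these data known. In the late minus early contrast, genes outside the 9 were named by rule. Of a list these were up to 3 that passed, taken by size of change, or by lowest adjusted p where none passed. The 6 genes most like the mean profile were named as well. For MP in sham rats this rule was not kept, and the genes past the threshold are not all listed. The text says where a gene was named otherwise. Alternatives were no noise filter, quantile normalization, array medians set to 0, a fit of the contrast's arrays alone, the duplicate number as a block, array weights, leaving out each array, the 6 h arrays or the 8 h arrays, single probe sets and, for MP in sham rats at 8 and 12 h, the methods' test per time point. The fit was tested on simulated data.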

Additional observations from a re-analysis of the deposited data

Results flagged for a closer look

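Several changes ran in opposite directions in both rats of one group and both rats of another. None of these differences was tested, and the genes were chosen with the contrasts between these groups in view. From 6 to 8 h in injured rats, 4 genes were higher at 8 h with vehicle and lower with MP. Their change in SCI-MP minus that in SCI-EtOH was −1.69 for S100a8, −2.05 for Hcar2, −1.55 for Prok2 and −3.76 for Slfn4. Opposite changes in either direction were found in 9.93% of all genes, and 6.28% of all genes had the other direction, a fall with vehicle and a rise with MP. From 8 to 12 h 5 genes fell with vehicle and rose with MP, with 2.61 for S100a8, 3.03 for S100a9, 2.18 for Fpr1, 1.79 for Hcar2 and 5.06 for Slfn4. That direction was found in 4.66% of all genes, and opposite changes in either direction in 8.18%. From 12 to 24 h S100a8 had −1.53 (3.03% in either direction).

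The difference of MP and vehicle also had opposite signs in injured and sham rats for some genes. Injured minus sham was −0.17 for S100a8 and −0.25 for Clec4e at 2 h (6.16% of all genes), −0.32 for S100a8 at 6 h (11.8%), −2.06 for S100a8, −3.27 for Clec4d, −1.50 for Clec4e and −2.35 for Prok2 at 8 h (12.7%), and 0.83 for S100a8 at 12 h (15.4%). Some of these signs rest on small differences. In S100a8 the sham difference was 0.09 at 2 h, 0.02 at 6 h, 0.07 at 8 h and −0.21 at 12 h. At 2 h the injured difference was −0.08 for S100a8 and −0.06 for Clec4e. At 8 h the sham difference was 0.33 for Clec4d, 0.19 for Clec4e and 0.29 for Prok2. At 6 h and at 12 h the share of the set, 1 gene each, was no larger than that of all genes.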

How the results depend on the processing

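Duplicate numbers did not pair the groups: over 43 pairs of groups, same-numbered deviations correlated from −0.49 to 0.42 (median 0.00), and 10 were over 0.1. With the duplicate number as a block, 8 genes were past the threshold for SCI-EtOH late minus early (24 to 48 h minus 2 to 6 h) and 5 for SCI-MP, and no count changed. Quantile normalization gave 1 call for MP in sham rats over the mean of 7 times, 1 at 2 to 6 h and 1 at 8 h, 3 for S-EtOH late minus early, 3 for SCI-EtOH, 3 for SCI-MP, and 0 for SCI-EtOH 48 h minus 24 h. A fit of the contrast's arrays alone gave 1 for MP in sham rats over the mean and 1 at 2 to 6 h, 1 for S-EtOH late minus early, and 0 for SCI-EtOH 48 h minus 24 h. Array weights gave 1 for MP in sham rats over the mean, 2 for S-EtOH 2 to 6 h minus 0 h and 1 for SCI-EtOH 48 h minus 24 h. Without the 8 h arrays, chosen after seeing the data, 5 genes were lower with MP in injured rats. Leaving out each array in turn gave 0 to 3 calls for SCI-EtOH 48 h minus 24 h, 0 to 2 for SCI-MP 48 h minus 24 h, 4 to 7 for SCI-MP late minus early and 7 to 8 for MP in injured rats over the mean. The cause of these changes was not tested. For the single genes past the threshold in the time contrasts of injured groups, 104 of 118 alternatives kept the side of the threshold and 14 lost it, and with an array left out 133 of 138 kept it and 5 lost it. For the injury and MP values of injured rats over 7 times, 44 of 243 alternatives moved the value by more than its standard error. The other 199 did not. They include no noise filter, single probe sets, the contrast's arrays alone, the duplicate block and array weights, which could not change these values. Each gene had 1 probe set, and the 2 arrays of a pair had equal weights. With an array left out 0 of 756 moved the value by more, but 1 array of 28 could hardly move a mean over 7 times. In none of these did a direction turn. With 2 rats per group and time, the smallest changes of the sham groups are not resolved.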
